A study of Mus musculus with 6 samples.

Results

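The genes described are 35 mouse genes that code for enzymes and regulators of sterol and fatty acid synthesis. They were chosen by name as members of these pathways, with earlier results of these data known. Their messenger RNA was measured in bulk bone marrow cultures on 6 one-colour Agilent arrays, each holding RNA of 1 sample. Every one of the 35 genes was on the arrays, with 78 probes in all, and every one was among the 21860 genes tested. The study compared suppressor cell cultures that differ in the marrow they start from, and set both against dendritic cells.

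The 6G- BM-MDSC arrays (2 samples) held cells grown from marrow from which Ly-6G+ cells, which are mostly neutrophils, had been removed with magnetic beads. The MDSC (conv.) arrays (2 samples) held cells grown from marrow that was not depleted. Both kinds of myeloid-derived suppressor cell (MDSC) culture received GM-CSF at 40 ng/mL for 4 days in tissue culture-treated dishes. The DCs arrays (2 samples) held marrow cells kept for 8 days with GM-CSF at 20 ng/mL in non-treated dishes, so that dose, time and plastic all differ between either MDSC group and DCs. All marrow came from female C57BL/6J mice aged 6 to 8 weeks, with no allele altered in any group. None of the cultures was sorted before RNA extraction as far as the labels tell, so each is a mixture of cell types. The samples of a group are told apart by a number alone, and p-values measure the spread between those samples, which may be technical.

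Cells build cholesterol from acetyl-CoA by way of mevalonate, squalene and lanosterol, and build fatty acids from the same precursor through malonyl-CoA, after which elongases lengthen the chains and desaturases put in double bonds. The transcription factors SREBP1 and SREBP2, products of Srebf1 and Srebf2, are held in the endoplasmic reticulum by INSIG proteins while sterol is plentiful and are carried to the Golgi by SCAP when it is scarce, and they then activate most of these genes together. Myeloid cells use the products for membranes, for lipid droplets and for signalling lipids, and liver X receptors act in the same cells to raise cholesterol export and some fatty acid synthesis genes.

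Values are log2 signal relative to the 75th percentile of the same array, so that 0 means a probe as bright as that percentile and a difference of 1 means 2-fold. A gene is represented by its brightest probe, and levels are compared only between samples, never between probes. Differences come from limma across all 6 arrays with their standard errors (SE), and a gene passed the test when its Benjamini-Hochberg adjusted p over all genes was under 0.05. All 35 representing probes were well above background on all 6 arrays. Across all genes, arrays of the same group correlated with r of 0.995 to 0.996, the MDSC groups with each other at 0.993 to 0.994, and either of them with DCs at 0.971 to 0.976. The neutrophil gene Ly6g was at 1.71 and 1.86 in 6G- BM-MDSC and at 1.95 and 1.96 in MDSC (conv.), against -1.94 and -2.19 in DCs. The removal of Ly-6G+ cells from the starting marrow left no difference in Ly6g that passed the test after 4 days (-0.17, SE 0.11), and all 12 dendritic cell markers were well above background in all groups. All 6 arrays shared 1 slide and 1 scan. Both MDSC groups lay in one row of the slide and DCs in the other, so position and the comparisons with DCs cannot be told apart.

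On average the 35 genes were lowest in 6G- BM-MDSC, intermediate in MDSC (conv.) and highest in DCs. Averaged over the genes, log2 signal was 2.44 and 2.43 in 6G- BM-MDSC, 2.76 and 2.77 in MDSC (conv.) and 3.12 and 3.11 in DCs. In 24 of the 35 genes both 6G- BM-MDSC arrays lay below both MDSC (conv.) arrays and these below both DCs arrays, an order found in 7.3% of all genes tested. The opposite order was found in 0 of the 35 and in 6.89% of all genes. The genes outside it were Mvd, Fdps, Lss, Hsd17b7, Ebp, Scap, Acly, Elovl1, Elovl6, Me1 and Lpin1. These are bulk samples, in which fewer cells of a type and less RNA per cell cannot be told apart.

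**Figure D1:**
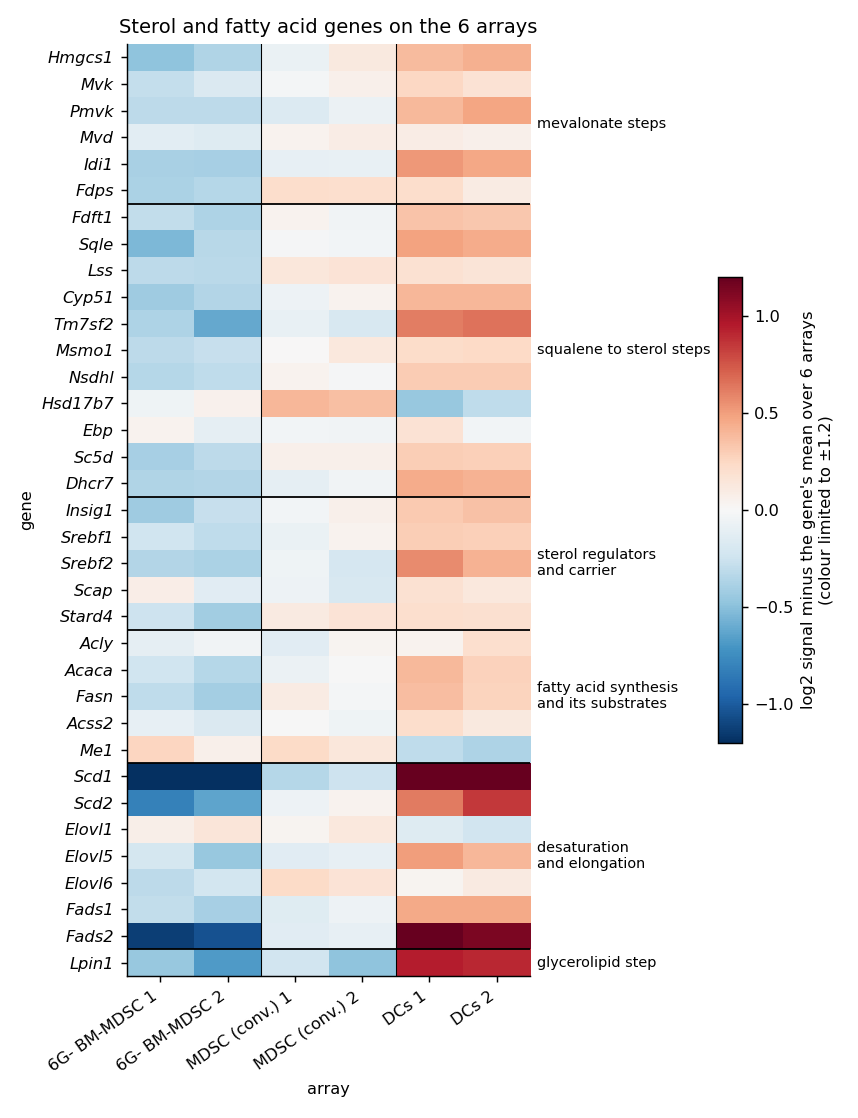
Heat map of the 35 genes (rows, grouped by role) on the 6 arrays (columns), coloured by log2 signal minus the gene's mean over the 6 arrays. Most rows run from blue in 6G- BM-MDSC over pale in MDSC (conv.) to red in DCs, and Hsd17b7, Me1 and Elovl1 are blue in DCs.

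Against DCs, 28 of the 35 genes were lower in 6G- BM-MDSC, 3 were higher (Hsd17b7, Me1 and Elovl1) and 4 did not pass the test (Mvd, Ebp, Scap and Acly). Over all genes, 17.8% were called lower and 15% higher in this comparison. The median difference of the 35 genes was -0.64, beside -0.04 over all genes tested. When arrays were scaled to their median in place of the 75th percentile, 25 of the 35 genes were lower and 3 higher, while the calls over all genes came to 3980 higher and 2712 lower, against 3278 higher and 3889 lower. The 28 calls became 25, 25, 24 and 24 without 6G- BM-MDSC sample 1, 6G- BM-MDSC sample 2, DCs sample 1 and DCs sample 2, and the 3 higher calls became 0, 1, 0 and 0. Over all genes the same fits gave 2762, 2055, 1947 and 1949 lower calls and 2064, 1681, 2007 and 2030 higher calls.

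In MDSC (conv.), 18 genes had lower signal than in DCs, 2 had higher signal (Hsd17b7 and Me1) and 15 did not pass, where 15.8% of all genes were called lower and 13.4% higher. The median difference was -0.31, beside -0.03 over all genes. The 18 lower calls became 9, 7, 9 and 10 without MDSC (conv.) sample 1, MDSC (conv.) sample 2, DCs sample 1 and DCs sample 2, and the 2 higher calls became 1 in each case. Over all genes, where 3457 were called lower and 2922 higher with all arrays, these fits gave 1976, 1420, 1750 and 1621 lower and 1777, 1371, 1859 and 1829 higher. Hmgcs1 and Fdft1 lost their call in MDSC (conv.) under 9 of 16 alternatives, and Acaca, Nsdhl and Srebf1 under 8 of 16. The 2 comparisons share the DCs arrays, so their values are given side by side and their likeness is not counted as a result.

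**Figure D2:**
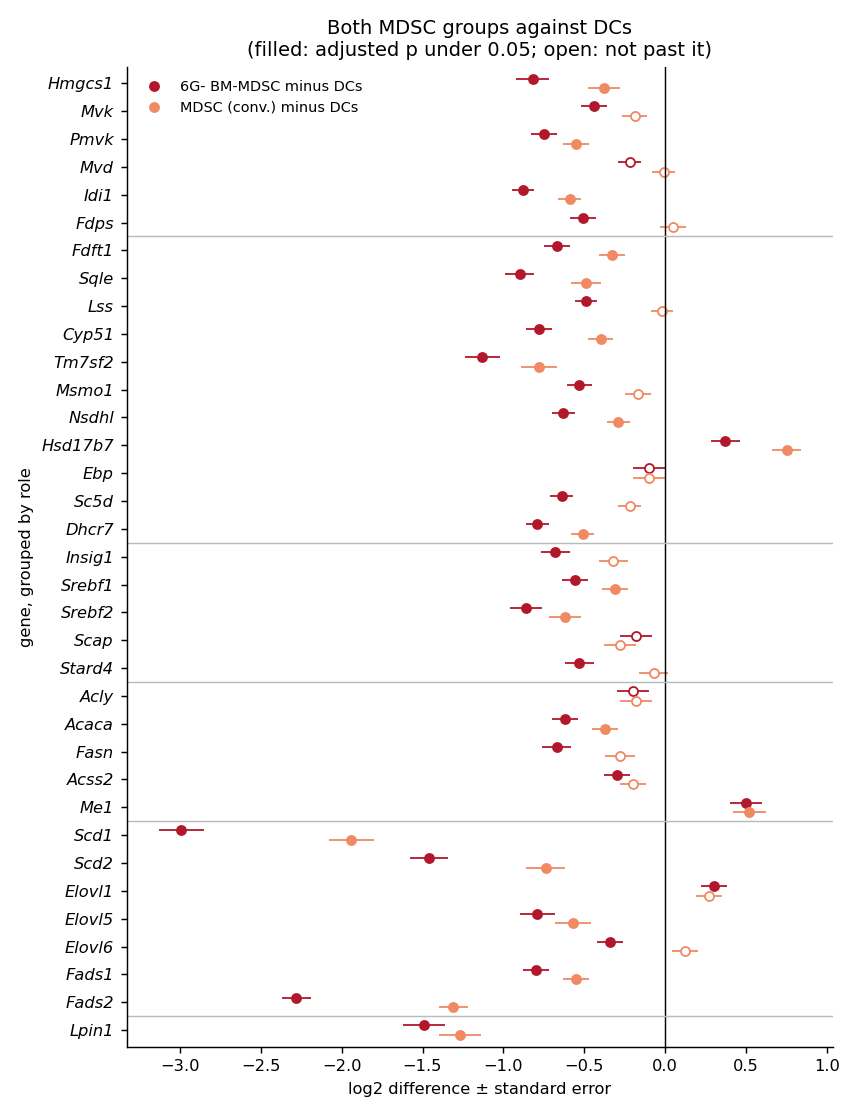
Log2 difference from DCs (x axis, ± standard error) of each of the 35 genes (y axis, grouped by role) in 6G- BM-MDSC and in MDSC (conv.), filled where the adjusted p was under 0.05. Scd1 and Fads2 lie farthest to the left in both groups, and Hsd17b7 and Me1 lie to the right of 0 in both.

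Cell type markers moved with the comparison with DCs. The summed level of 13 neutrophil markers, as a multiple of each array's 75th percentile, was 1500 and 1720 in 6G- BM-MDSC and 1850 and 1820 in MDSC (conv.), against 504 and 482 in DCs. The sum of 12 dendritic cell markers was 1020 and 938 in 6G- BM-MDSC and 989 and 977 in MDSC (conv.), against 1680 and 1730 in DCs, and that of 10 macrophage markers was 250 and 250 in 6G- BM-MDSC and 216 and 229 in MDSC (conv.), against 325 and 354 in DCs. None of these neutrophil, dendritic cell and macrophage markers fell to background in any group. The sum of 5 monocyte markers was 262 and 311 in 6G- BM-MDSC and 297 and 307 in MDSC (conv.), against 68 and 94.6 in DCs, and that of 6 basophil and mast cell markers was 74.4 and 71.1 in 6G- BM-MDSC and 74.5 and 74.5 in MDSC (conv.), against 13.6 and 9.8 in DCs. Lymphoid markers (6 of 7 tested) summed to 4.57 and 3.87 in 6G- BM-MDSC and 4.68 and 4.43 in MDSC (conv.), against 1.29 and 0.831 in DCs, and erythroid markers (2 of 6 tested) to 0.867 and 1.58 in 6G- BM-MDSC and 0.899 and 1.51 in MDSC (conv.), against 0.318 and 0.304 in DCs. For all these lists their part in the lower sterol and fatty acid genes was not tested. Cell division markers differed less, with summed levels of 269 and 269 in 6G- BM-MDSC and 273 and 291 in MDSC (conv.), against 252 and 236 in DCs.

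The largest differences from DCs were those of the desaturases Scd1 and Fads2. Scd1, which puts the double bond into palmitic and stearic acid, was at -2.15 and -2.03 in 6G- BM-MDSC, at -1.09 and -0.99 in MDSC (conv.) and at 0.72 and 1.08 in DCs. The groups did not overlap. Scd1 was 7.93-fold lower in 6G- BM-MDSC than in DCs (log2 difference -2.99, SE 0.14, adjusted p = 0.000451) and 3.83-fold lower in MDSC (conv.) than in DCs (-1.94, SE 0.14, adjusted p = 0.00141).

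Fads2, the first desaturase on the route to arachidonic acid and other polyunsaturated fatty acids, was at -1.03 and -0.95 in 6G- BM-MDSC, at -0.04 and 0.00 in MDSC (conv.) and at 1.37 and 1.22 in DCs. It was 4.87-fold lower in 6G- BM-MDSC than in DCs (-2.28, SE 0.09, adjusted p = 0.000284) and 2.48-fold lower in MDSC (conv.) than in DCs (-1.31, SE 0.09, adjusted p = 0.00104). All 5 of its probes passed the test against DCs in both MDSC groups, with differences of -2.17 to -3.12 for 6G- BM-MDSC and of -1.15 to -1.56 for MDSC (conv.). The neighbouring gene Fads1, which acts later on the same route, was lower by less, at -0.80 in 6G- BM-MDSC and -0.55 in MDSC (conv.) relative to DCs.

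Scd2, the main stearoyl-CoA desaturase of many tissues other than liver, was at 4.39 and 4.57 in 6G- BM-MDSC, at 5.14 and 5.25 in MDSC (conv.) and at 5.83 and 6.05 in DCs. It was 2.74-fold lower in 6G- BM-MDSC than in DCs (-1.46, SE 0.12, adjusted p = 0.00169) and 1.67-fold lower in MDSC (conv.) than in DCs (-0.74, SE 0.12, adjusted p = 0.0114). Again the 3 groups did not overlap.

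The 3 elongases differed from one another. Elovl5, which lengthens polyunsaturated chains, was lower than in DCs in 6G- BM-MDSC (-0.79) and in MDSC (conv.) (-0.57). Elovl6, which takes palmitic to stearic acid, was lower than in DCs in 6G- BM-MDSC (-0.34), a call lost under 7 of 16 alternatives, while the difference for MDSC (conv.) was 0.12 with an SE of 0.08 and did not pass. Elovl1, which extends saturated and monounsaturated chains to very long lengths, was at 6.68 and 6.75 in 6G- BM-MDSC and at 6.64 and 6.73 in MDSC (conv.), against 6.45 and 6.38 in DCs. It was higher in 6G- BM-MDSC than in DCs (0.30, SE 0.08, adjusted p = 0.0422), a call lost under 8 of 16 alternatives, and the difference of 0.27 for MDSC (conv.) had an adjusted p of 0.0606.

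**Figure D3:**
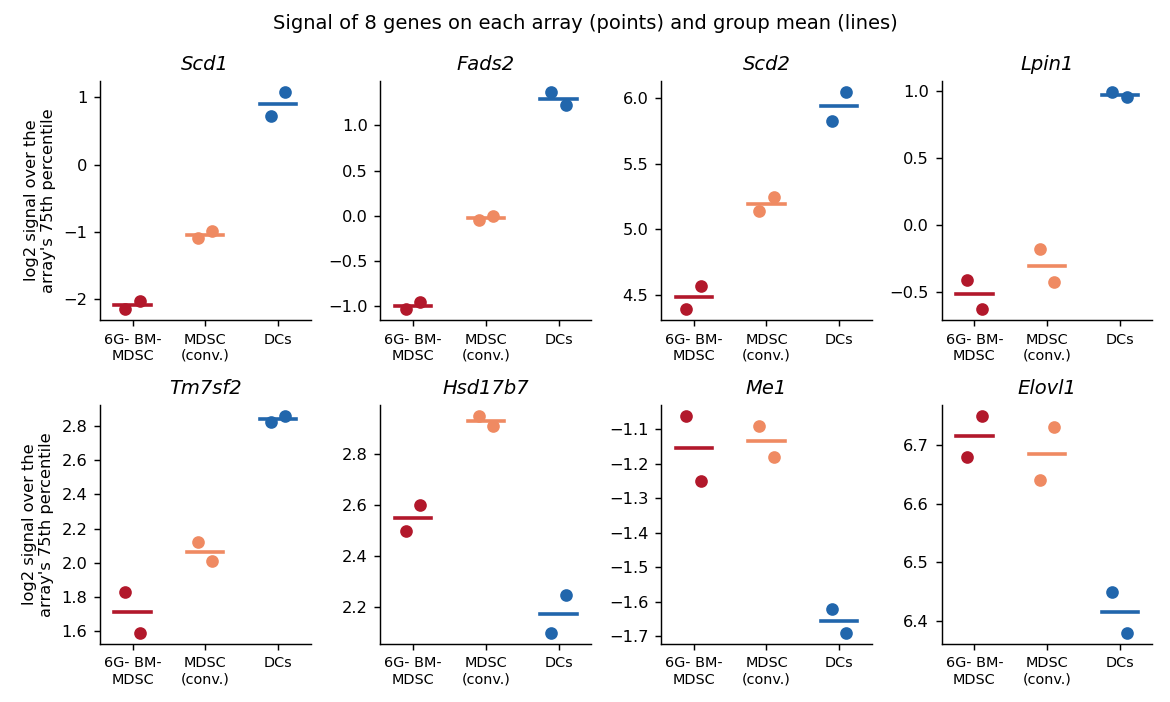
Log2 signal over the array's 75th percentile (y axis, a separate scale in each panel) of 8 genes in 6G- BM-MDSC, MDSC (conv.) and DCs, with a point per array and a line at the group mean. The points of Scd1, Fads2, Scd2 and Tm7sf2 climb from left to right with no overlap, the MDSC groups overlap in Lpin1, Me1 and Elovl1, and Hsd17b7, Me1 and Elovl1 are lowest in DCs.

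Lpin1 codes for a phosphatidate phosphatase of triglyceride and phospholipid synthesis. It was at -0.41 and -0.63 in 6G- BM-MDSC, at -0.18 and -0.43 in MDSC (conv.) and at 0.99 and 0.95 in DCs, so that the MDSC groups overlapped and both lay below DCs. The difference from DCs was -1.49 in 6G- BM-MDSC (SE 0.13, adjusted p = 0.00202) and -1.27 in MDSC (conv.) (SE 0.13, adjusted p = 0.0032). Its 3 dimmer probes had differences of -1.04 to -1.32 in 6G- BM-MDSC, all past the test, and of -0.58 to -1.10 in MDSC (conv.), of which 1 passed.

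The genes that make fatty acid chains and supply their precursors had smaller differences. Fasn, the fatty acid synthase, was lower in 6G- BM-MDSC than in DCs (-0.67, SE 0.09, adjusted p = 0.00667), with a difference of -0.28 in MDSC (conv.) that did not pass. Acaca, which makes malonyl-CoA, was lower than in DCs in 6G- BM-MDSC (-0.62) and in MDSC (conv.) (-0.37). Acss2, which makes acetyl-CoA from acetate, was lower in 6G- BM-MDSC (-0.30), a call lost under 8 of 16 alternatives. Acly, which makes acetyl-CoA from citrate, passed in neither group, with differences of -0.20 and -0.18 and an SE of 0.10 each. Me1, a source of NADPH, ran the other way and was higher than in DCs in 6G- BM-MDSC (0.50, adjusted p = 0.0193) and in MDSC (conv.) (0.52, adjusted p = 0.0182).

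Of the 6 genes that turn acetyl-CoA units into farnesyl diphosphate, 5 were lower than in DCs in 6G- BM-MDSC and 3 in MDSC (conv.). The shares called lower over all genes were 17.8% and 15.8%. Idi1, the isomerase that makes the reactive isoprene unit, had a difference of -0.88 in 6G- BM-MDSC (SE 0.07, adjusted p = 0.00159) and of -0.59 in MDSC (conv.). Hmgcs1, which makes HMG-CoA, was at 4.12 and 4.25 in 6G- BM-MDSC, at 4.53 and 4.72 in MDSC (conv.) and at 4.99 and 5.03 in DCs, which gave differences from DCs of -0.82 (adjusted p = 0.00535) and -0.38 (adjusted p = 0.047). The kinase Pmvk was lower in 6G- BM-MDSC (-0.75) and in MDSC (conv.) (-0.55). The kinase Mvk was lower in 6G- BM-MDSC (-0.44), and the decarboxylase Mvd did not pass in either group (-0.22 and -0.01).

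Fdps, the farnesyl diphosphate synthase, and Lss, the lanosterol synthase, were lower than in DCs in 6G- BM-MDSC, and their representing probes did not pass the test in MDSC (conv.). Fdps was at 4.94 and 4.98 in 6G- BM-MDSC, at 5.53 and 5.52 in MDSC (conv.) and at 5.53 and 5.42 in DCs. The difference of 6G- BM-MDSC from DCs was -0.51 (SE 0.08, adjusted p = 0.00923), that of MDSC (conv.) from DCs was 0.05 (SE 0.08, adjusted p = 0.656). Lss was at 1.74 and 1.73 in 6G- BM-MDSC, 2.19 and 2.21 in MDSC (conv.) and 2.23 and 2.20 in DCs. A second, dimmer Lss probe was lower than in DCs in both groups (-0.76 in 6G- BM-MDSC, -0.42 in MDSC (conv.), adjusted p = 0.0341 for the second), and its remaining probe differed by -0.33 and -0.12 and did not pass in either.

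Of the 11 genes from squalene to cholesterol, 9 were lower than in DCs in 6G- BM-MDSC and 6 in MDSC (conv.), beside 17.8% and 15.8% of all genes. Tm7sf2, a sterol C-14 reductase, was at 1.83 and 1.59 in 6G- BM-MDSC, at 2.12 and 2.01 in MDSC (conv.) and at 2.82 and 2.86 in DCs. Its difference from DCs was -1.13 in 6G- BM-MDSC (SE 0.11, adjusted p = 0.00265) and -0.78 in MDSC (conv.) (SE 0.11, adjusted p = 0.00791), and a second probe gave -1.13 and -0.79. Sqle, the squalene epoxidase and a rate-limiting step, was also lower in 6G- BM-MDSC (-0.90) and in MDSC (conv.) (-0.49).

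The other enzymes of this stretch lay closer together. Dhcr7, which makes cholesterol in the last step of one branch, was lower in 6G- BM-MDSC (-0.79) and in MDSC (conv.) (-0.51), and so was Cyp51, the lanosterol demethylase (-0.78 and -0.40). Fdft1, the squalene synthase, was lower in 6G- BM-MDSC (-0.67) and in MDSC (conv.) (-0.33), as was Nsdhl, a sterol dehydrogenase (-0.63 and -0.29). Sc5d (-0.64), Msmo1 (-0.53) and Lss (-0.49) were lower in 6G- BM-MDSC, and the differences of their representing probes in MDSC (conv.) did not pass (-0.22, -0.17 and -0.02). A dimmer Sc5d probe was lower than in DCs in MDSC (conv.) as well (-0.72, adjusted p = 0.00423). Ebp, a sterol isomerase, differed from DCs by -0.10 in each MDSC group with an SE of 0.10.

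Hsd17b7, a ketoreductase that removes the C-4 methyl groups together with Msmo1 and Nsdhl, went against them relative to DCs. It was at 2.50 and 2.60 in 6G- BM-MDSC, at 2.95 and 2.91 in MDSC (conv.) and at 2.10 and 2.25 in DCs. It was higher than in DCs in MDSC (conv.) (0.75, SE 0.09, adjusted p = 0.00501) and in 6G- BM-MDSC (0.37, SE 0.09, adjusted p = 0.0323), and its 2 other probes gave 1.27 and 0.83 for MDSC (conv.) and 0.52 and 0.46 for 6G- BM-MDSC, all past the test. The call for 6G- BM-MDSC was lost under 6 of 16 alternatives. Between the MDSC groups Hsd17b7 differed by -0.38, in the direction of Msmo1 (-0.36) and Nsdhl (-0.34), and none of the 3 passed the test.

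Among the regulators, both SREBP genes were lower than in DCs in both MDSC groups. Srebf2 was at 2.35 and 2.32 in 6G- BM-MDSC, at 2.65 and 2.50 in MDSC (conv.) and at 3.27 and 3.12 in DCs, with differences of -0.86 (adjusted p = 0.00404) and -0.62 (adjusted p = 0.0108). Srebf1 differed from DCs by -0.56 in 6G- BM-MDSC and by -0.31 in MDSC (conv.). Insig1, itself an SREBP target, was lower in 6G- BM-MDSC (-0.68, adjusted p = 0.00637), and its difference of -0.32 in MDSC (conv.) had an adjusted p of 0.0539. The sterol carrier Stard4 was lower in 6G- BM-MDSC (-0.53), with -0.07 in MDSC (conv.), and Scap passed in neither group (-0.18 and -0.28).

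6G- BM-MDSC and MDSC (conv.) differ in the marrow they were started from and in the antibody and bead separation it went through, which cannot be told apart. Between these 2 groups none of the 35 genes differed by an amount that passed the test. The difference was negative in 32 of 35 genes with a median of -0.34, beside 0.00 over all genes tested, and it ran from -1.05 (Scd1) to 0.10 (Scap). Both 6G- BM-MDSC arrays lay below both MDSC (conv.) arrays in 29 genes and above them in 0, where 21.8% of all genes had arrays that lay below and 22.4% had arrays that lay above. At an unadjusted p under 0.05 by limma, 25 of the 35 genes were lower and 0 higher, where 6.6% of all genes were lower and 4.18% higher. After adjustment 0 of the 35 were called by limma, and over all genes 0.00915% were called lower and 0.00457% higher, which is 2 genes and 1 gene. An equal-variance t-test with the same adjustment called 0 of the 35 and 0 over all genes. The paper names that test for its statistics in general, not for the arrays.

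The largest differences in this comparison were those of the desaturases Scd1, Fads2 and Scd2, while the other desaturase of the 35, Fads1, differed by -0.24 (adjusted p = 0.411). Scd1 differed by -1.05 (SE 0.14, unadjusted p = 0.000751, adjusted p = 0.214), Fads2 by -0.97 (SE 0.09, unadjusted p = 0.0001, adjusted p = 0.18) and Scd2 by -0.71 (SE 0.12, adjusted p = 0.246). The next was Fdps at -0.56 (SE 0.08, adjusted p = 0.214). The 5 Fads2 probes gave -0.97 to -1.56. With a prior variance that follows the intensity, 5 of the 35 genes passed, among them Fads2 (adjusted p = 0.0297), Fdps (0.0391), Scd1 (0.0473) and Scd2 (0.0498), and the fifth was Lss, named after its values were seen.

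By role, the median difference was -0.27 over the 6 genes up to farnesyl diphosphate, -0.36 over the 11 from squalene to cholesterol, -0.25 over the 5 regulators and carriers, -0.11 over the 5 genes of fatty acid synthesis and its substrates and -0.46 over the 7 desaturases and elongases. The genes nearest to 0 were Acly and Me1 (-0.02 each), Ebp (0.01) and Elovl1 (0.03), with SE of 0.08 to 0.10. Neutrophil markers also had negative differences here in 12 of 13 genes, with a median of -0.20 and 0 of 13 past the test, and cell division markers in 10 of 12, with a median of -0.05. The part of the neutrophil markers in the lower sterol and fatty acid genes was not tested.

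**Figure D4:**
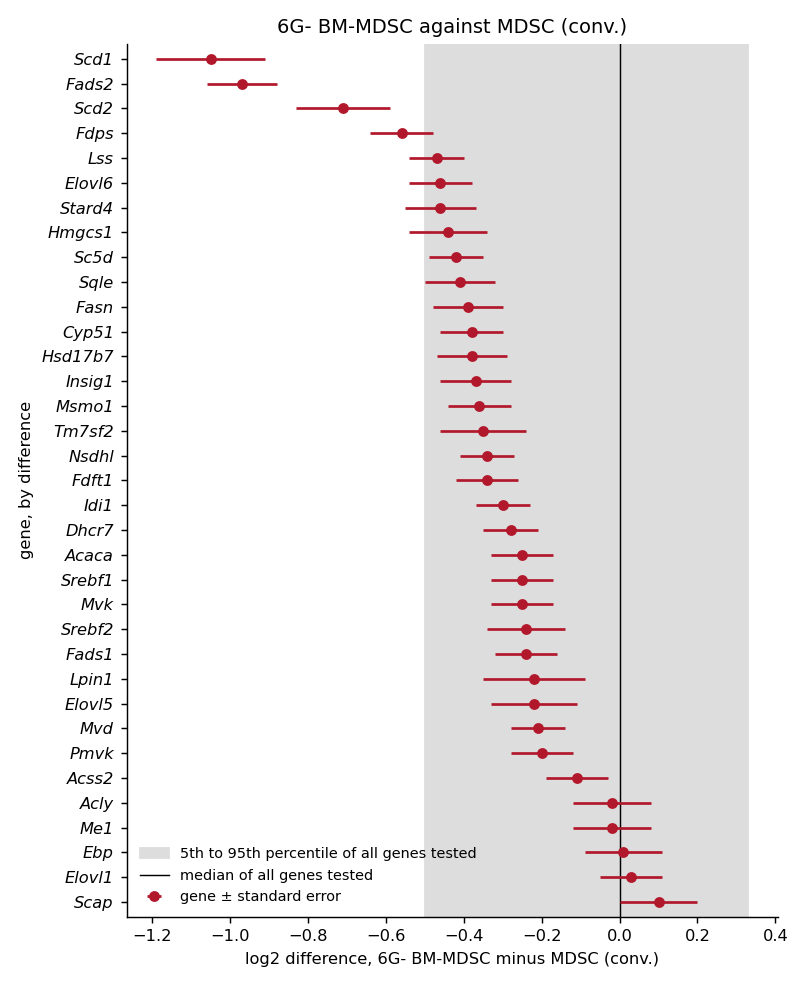
Log2 difference between 6G- BM-MDSC and MDSC (conv.) (x axis, ± standard error) of the 35 genes (y axis, in order of the difference), over a grey band from the 5th to the 95th percentile of all genes tested (-0.50 to 0.33). Scd1, Fads2, Scd2 and Fdps lie below the band and 32 of 35 genes lie left of 0.

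Promoter sequence was read for all members that had a promoter, whichever way they moved. SREBP acts at sterol regulatory elements alongside the factors NF-Y, which binds CCAAT boxes, and SP1, which binds GC boxes. RefSeq promoters of build GRCm38.p6 were matched to 28 of the 35 genes by symbol, and the 250 bases before each start were searched on both strands, each motif on its own and overlaps allowed. CCAAT was found in 22 of the 28 genes (78.6%), beside 39.9% of the 12502 tested genes with a promoter and 37.5% of all 27025 genes. The GC box GGGCGG was in 22 of 28 (78.6%), beside 56.3% of tested genes and 35.4% of all genes. The E-box CACGTG was in 6 of 28 (21.4%), beside 9.19% and 6.86%, and the sterol regulatory element TCACNCCAC in 1 of 28 (3.57%), beside 1.22% of tested genes and 1.22% of all genes. Only these exact letters within the 250 bases were counted, so a gene without a match may hold an element that varies or lies elsewhere. Of the 28, 21 were called lower in 6G- BM-MDSC than in DCs. Among these 21, CCAAT was in 81%, the GC box in 71.4%, the E-box in 19% and the sterol regulatory element in 4.76%.

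The 5 promoters shown are those of Fads2, Lpin1 and Tm7sf2, which had some of the largest differences from DCs in both MDSC groups, and of Hmgcs1 and Hsd17b7, chosen after their values were seen, the first because it holds the sterol regulatory element and the second because the gene ran the opposite way relative to DCs. Scd1 and Scd2 are not shown because no promoter was matched to them. Capitals mark matches to the 4 motifs on either strand, so that ATTGG is a CCAAT box and CCGCCC a GC box read on the other strand. Each run ends at the base before the start.
Hmgcs1: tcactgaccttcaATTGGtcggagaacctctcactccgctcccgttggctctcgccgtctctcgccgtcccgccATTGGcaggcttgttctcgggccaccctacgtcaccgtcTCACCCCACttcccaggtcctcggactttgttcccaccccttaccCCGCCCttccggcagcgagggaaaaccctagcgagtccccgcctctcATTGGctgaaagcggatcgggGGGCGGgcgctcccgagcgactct
Tm7sf2: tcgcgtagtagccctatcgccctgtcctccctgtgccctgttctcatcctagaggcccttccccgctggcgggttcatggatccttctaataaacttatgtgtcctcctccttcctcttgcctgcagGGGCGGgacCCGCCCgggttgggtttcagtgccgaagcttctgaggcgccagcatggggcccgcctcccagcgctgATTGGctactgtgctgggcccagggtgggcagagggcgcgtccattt
Hsd17b7: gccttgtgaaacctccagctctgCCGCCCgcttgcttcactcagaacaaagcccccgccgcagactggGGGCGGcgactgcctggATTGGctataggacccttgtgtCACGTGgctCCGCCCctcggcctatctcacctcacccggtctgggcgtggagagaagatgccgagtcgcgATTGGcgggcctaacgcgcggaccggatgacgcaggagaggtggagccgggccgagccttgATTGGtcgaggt
Fads2: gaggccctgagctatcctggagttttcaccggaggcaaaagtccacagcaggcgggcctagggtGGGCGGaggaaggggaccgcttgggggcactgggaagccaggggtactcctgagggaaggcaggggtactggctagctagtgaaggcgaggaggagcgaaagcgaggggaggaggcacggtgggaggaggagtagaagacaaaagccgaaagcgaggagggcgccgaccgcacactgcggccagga
Lpin1: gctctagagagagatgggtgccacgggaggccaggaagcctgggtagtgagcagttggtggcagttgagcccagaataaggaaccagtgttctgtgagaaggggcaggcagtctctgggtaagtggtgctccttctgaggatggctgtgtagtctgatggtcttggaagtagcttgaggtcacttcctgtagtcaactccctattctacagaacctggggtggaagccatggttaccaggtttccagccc
The windows are chr13:119690101-119690350 for Hmgcs1 (plus strand), chr19:6067851-6068100 for Tm7sf2 (minus strand), chr1:169969206-169969455 for Hsd17b7 (minus strand), chr19:10101504-10101753 for Fads2 (minus strand) and chr12:16610967-16611216 for Lpin1 (minus strand), all in GRCm38.p6.
In Hmgcs1 the capitals hold 3 CCAAT boxes, 2 GC boxes and, between them, the sterol regulatory element, whose first base lies 137 bases before the start. Tm7sf2 has 1 CCAAT box and 2 GC boxes, and Hsd17b7, whose signal exceeded that of DCs in both MDSC groups, has 3 CCAAT boxes, 3 GC boxes and 1 E-box. Fads2, with the second largest difference among the 35 genes, has 1 GC box and no CCAAT box in this window, and Lpin1 has no match to any of the 4. A match is a run of letters and was not tested as a binding site.

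Genes of the neighbouring pathways went in both directions, as did genes over the whole array. The all-gene shares to set beside the counts below were 15% higher and 17.8% lower for 6G- BM-MDSC against DCs. For MDSC (conv.) against DCs these shares were 13.4% higher and 15.8% lower. Whether any neighbouring list departed from the all-gene shares was not tested. Relative to DCs, 2 of 12 other sterol pathway genes were higher and 2 lower in 6G- BM-MDSC (median -0.01), and 3 were higher and 1 lower in MDSC (conv.) (median 0.12). Lbr, the second sterol C-14 reductase and a nuclear envelope protein, was at 5.14 and 5.21 in 6G- BM-MDSC and at 5.28 and 5.44 in MDSC (conv.), against 4.44 and 4.31 in DCs. It was higher than in DCs, by 0.81 in 6G- BM-MDSC (adjusted p = 0.00488) and by 0.99 in MDSC (conv.) (adjusted p = 0.00291), while Tm7sf2, with the same activity, was lower in both. Tmem97, a sterol-regulated receptor, was higher in 6G- BM-MDSC (0.34) and MDSC (conv.) (0.47), Cyb5r3, an electron donor, was lower (-0.55 and -0.47), and Por, the reductase that serves Cyp51 and Sqle, was higher in MDSC (conv.) (0.44) with a difference of 0.22 in 6G- BM-MDSC that did not pass.

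Of 27 other fatty acid and glycerolipid genes, 8 were higher and 5 lower in 6G- BM-MDSC relative to DCs (median -0.04), with 7 higher and 4 lower in MDSC (conv.) (median -0.05). Dgat2, which completes triglyceride, was at 4.40 and 4.47 in 6G- BM-MDSC and at 4.45 and 4.58 in MDSC (conv.), against 1.13 and 1.31 in DCs, differences of 3.22 (adjusted p = 0.000214) and 3.29 (adjusted p = 0.000208). Its direction was opposite to that of Lpin1, which acts just before it. Hacd1, a dehydratase of chain elongation, was higher in 6G- BM-MDSC (1.44) and MDSC (conv.) (1.55) than in DCs. Dgat1, with the same activity as Dgat2, was higher in MDSC (conv.) (1.81) and differed by 1.28 in 6G- BM-MDSC, where its arrays lay at 0.65 and 1.72 and the adjusted p was 0.0514. One of the higher genes, the elongase Elovl2, was well above background in 6G- BM-MDSC alone and was at least 1.01-fold higher there than in DCs. It entered the test only through the group where it is high, so nothing is read from its call.

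Some targets of liver X receptors were also lower than in DCs, namely Abca1, Mylip and Abcg1. Of 11 genes of cholesterol export, storage and these receptors, 1 was higher and 4 lower in 6G- BM-MDSC (median -0.20), and 0 were higher and 3 lower in MDSC (conv.) (median -0.18). The cholesterol exporter Abca1 was at -0.70 and -0.71 in 6G- BM-MDSC and at -0.68 and -0.69 in MDSC (conv.), against 0.93 and 1.31 in DCs, with differences of -1.83 (adjusted p = 0.00148) and -1.81 (adjusted p = 0.00159). Mylip, a ubiquitin ligase for lipoprotein receptors, was lower in 6G- BM-MDSC (-0.89) and in MDSC (conv.) (-0.93), as was the exporter Abcg1 (-0.84 and -0.65). Ch25h, which makes 25-hydroxycholesterol, was higher in 6G- BM-MDSC (0.45), with a difference of 0.33 in MDSC (conv.) that did not pass. Abca1, Mylip and Abcg1 differed between the MDSC groups by -0.02, 0.04 and -0.20, and none of these differences passed the test.

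Of 13 fatty acid oxidation genes, 3 were higher and 3 lower in 6G- BM-MDSC relative to DCs (median 0.04), with 1 higher and 2 lower in MDSC (conv.) (median 0.07). The carnitine carrier Slc25a20 was lower in 6G- BM-MDSC (-1.05), with a difference of -0.21 in MDSC (conv.) that did not pass. Acaa2, the last enzyme of the mitochondrial cycle, was higher in both (0.63 and 0.46), and Eci1, an isomerase, in 6G- BM-MDSC (0.55). Between 6G- BM-MDSC and MDSC (conv.) the list medians were -0.11 for other sterol genes, -0.03 for other fatty acid and glycerolipid genes, 0.04 for export and receptor genes and 0.06 for oxidation, with 0 genes past the test in each.

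**Figure D5:**
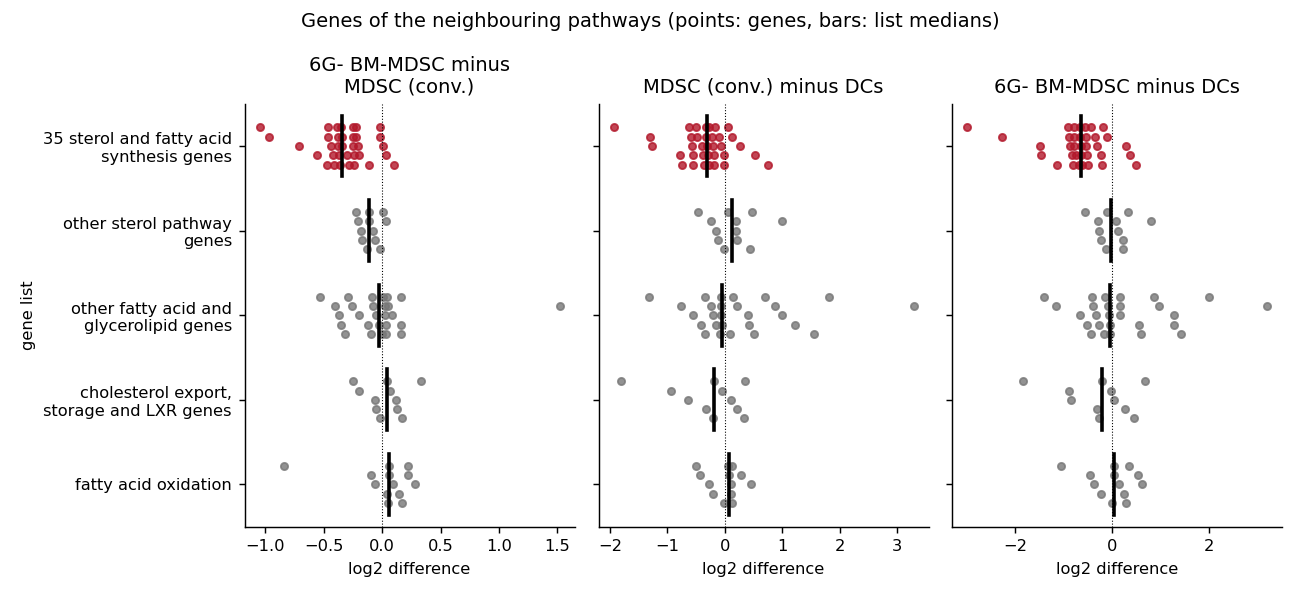
Log2 difference (x axis) of the 35 genes (red) and of the genes of 4 neighbouring lists (grey) in 3 comparisons (panels), where points are genes and black bars are list medians. The bar of the 35 genes lies at -0.34, -0.31 and -0.64, and those of the other lists lie between -0.20 and 0.12.

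Of the 35 genes, 10 had 1 probe and 25 had several, with 38 probes beyond the representing ones tested. These had the same sign as the representing probe in 36 of 38 cases between 6G- BM-MDSC and DCs, in 35 between MDSC (conv.) and DCs and in 35 between the MDSC groups. None of those of opposite sign passed the test. Relative to DCs they were a second probe of Ebp (0.28 in 6G- BM-MDSC and 0.22 in MDSC (conv.)), a dim probe of Acss2 (1.05 and 0.38) and, in MDSC (conv.) alone, a probe of Stard4 (0.25). Between the MDSC groups they belonged to Acss2 (0.67), Elovl1 (-0.52) and Me1 (0.15).

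The probes differed more often in their call, with p adjusted over the 33482 probes tested. In 6G- BM-MDSC against DCs, 9 probes did not pass where the representing probe did. They were those of Acaca (-0.45 and -0.69), Acss2 (-0.65 and 1.05), Hmgcs1 (-0.51), Lss (-0.33), Msmo1 (-0.39), Stard4 (-0.14) and Elovl1 (0.31). In MDSC (conv.) against DCs, 8 probes did not pass where the representing probe did, those of Acaca (-0.32, -0.18 and -0.22), Lpin1 (-0.61 and -0.58), Elovl5 (-0.22), Fdft1 (-0.17) and Hmgcs1 (-0.30), and 2 passed where it did not, those of Lss and Sc5d.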

How the data were processed

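RNA was labelled with cyanine-3 and hybridised by the authors to Agilent mouse arrays, and the deposited scanner files give processed intensity per spot from Feature Extraction (version 10.5.1.1 in the submitters' processing notes, 10.7.3.1 in the headers), background-subtracted and not normalized between arrays. The deposited value table holds the same processed intensities, not log2 values, and differed from the scanner files by at most 0.005. Control spots and spots marked as outliers were left out, replicate spots averaged, and values expressed as log2 relative to the array's 75th percentile. Gene names are those of the files, updated through RefSeq accessions for 1535 of 56605 probes. A probe entered the fit (33482 did) if 1 group or more had it well above background on its 2 arrays, and the brightest such probe stood for the gene (21860 genes). The 3 groups were fitted with limma 3.58.1 in R 4.3.3 (lmFit, eBayes), with Benjamini-Hochberg adjustment over all genes, and the fit was tested on simulated data. The members and lists were chosen with earlier results of these data known. Members are given with their difference where it passed the test or reached 0.5, every array's value where it reached 1 in any comparison and for some others beside, and up to 4 genes are named from each neighbouring list. Alternatives changed the background correction, scaling, filter, probe choice, arrays fitted and test. The 2 arrays a group limit the precision.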

Additional observations from a re-analysis of the deposited data

How the results depend on the processing

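No difference of the 35 genes that passed the test or reached 0.5 changed sign under the 18 alternatives run (16 for each comparison). Among all 35 genes, each alternative kept 34 to 35 signs for 6G- BM-MDSC against DCs, 33 to 35 for MDSC (conv.) against DCs and 32 to 35 between the MDSC groups. The signs of Ebp, Mvd, Lss, Fdps and Stard4 against DCs and of Acly, Me1, Ebp, Elovl1, Acss2 and Scap between the MDSC groups changed under at least 1 alternative, from differences near 0. Among single genes, 430 of 496 results against DCs for 6G- BM-MDSC and 242 of 320 for MDSC (conv.) stayed on their side of the threshold and 66 and 78 lost their call, 51 of these 144 under the equal-variance test named in the methods. The paper names that test for its statistics in general, not for the arrays. It called 0 of the 35 genes higher and 0 lower in either comparison with DCs, with 41 higher and 25 lower calls over all genes for 6G- BM-MDSC and 4 and 3 for MDSC (conv.). Without one array at a time, 0 to 1 genes had higher signal than in DCs in 6G- BM-MDSC, and 1 had higher and 7 to 10 had lower signal in MDSC (conv.), where the lone array left in a group is assumed to vary like the others. With only the arrays compared, 1 gene was higher in 6G- BM-MDSC than in DCs, where 2760 were higher over all genes. The same setting called 13 genes lower in MDSC (conv.) than in DCs, in place of 18, with 3006 lower over all genes. Scaling to the array median moved the median difference of 6G- BM-MDSC from DCs from -0.64 to -0.55. The median over all genes moved from -0.04 to 0.06. With this scaling 13 genes were lower in MDSC (conv.) than in DCs, where 2794 were lower over all genes. Between 6G- BM-MDSC and MDSC (conv.), normexp gave 1 lower gene (Fads2) and an intensity-dependent prior variance 5, with 2 higher and 7 lower calls over all genes for the first and 11 and 53 for the second, against 1 and 2. Without a filter on dim probes 37325 genes were tested and 8752 and 8700 were called lower in 6G- BM-MDSC and MDSC (conv.) than in DCs, against 3889 and 3457. Where these changes arise, the cause was not tested. Samples of the same number deviated together with r of 0.114, 0.0416 and 0.125 between the groups, not all over 0.1, and the labels do not say what a number marks, so the samples were not paired. The replicate block gave 28 lower and 2 higher genes for 6G- BM-MDSC and 16 and 2 for MDSC (conv.) against DCs, and 0 and 0 between the MDSC groups. Over all genes it called 3714 lower and 3140 higher for 6G- BM-MDSC and 3177 and 2784 for MDSC (conv.) against DCs. Between the MDSC groups it called 2 lower and 1 higher over all genes. With 2 arrays a group, 3 residual degrees of freedom and 1.96 prior degrees of freedom, small differences cannot be told from 0.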

Other observations

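Paralogues of the 35 genes were chosen after their values were seen. Fads3, next to Fads1 and Fads2 in the same gene cluster, was at 0.52 and 0.81 in 6G- BM-MDSC and at 0.63 and 0.88 in MDSC (conv.), against 1.95 and 2.19 in DCs, so that it was lower than in DCs by 1.41 (adjusted p = 0.00414) and 1.32 (adjusted p = 0.00536) and differed by -0.09 between the MDSC groups, where Fads2 differed by -0.97. Scd3 was at -0.91 and -1.18 in 6G- BM-MDSC and at -0.73 and -0.67 in MDSC (conv.), against -0.83 and -0.74 in DCs, and passed the test in no comparison, with a difference of -0.35 between the MDSC groups (adjusted p = 0.407). Elovl7 was higher than in DCs in 6G- BM-MDSC (0.60) and in MDSC (conv.) (0.88), and differed by -0.29 between them (adjusted p = 0.362). Lpin2 and Lpin3 differed from DCs by -0.04 and -0.07 in 6G- BM-MDSC and by -0.07 each in MDSC (conv.), where Lpin1 differed by -1.49 and -1.27.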
